A study of Mus musculus with 4 samples.

Results

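The genes described here are 31 genes of B cell receptor signalling: the receptor's signalling chains, its coreceptors and inhibitory receptors, and the kinases, adaptors, lipid enzymes, exchange factors and phosphatases that act on its signal. They were chosen by name and not by a rule on their values, though with earlier results of these data known. All 31 were found among the 41342 named genes of the gene count table. RNA of CD43-depleted splenic B cells was measured in 4 libraries, 1 per group. The study asked what the palindromic layout of the 3'RR, the enhancer region downstream of the immunoglobulin heavy-chain genes, contributes to B cell functions.

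The ΔleftPAL mice lack the left part of the palindrome, with the enhancers hs3a and hs1,2 and the repeated sequences between them. The ΔIRIS mice lack the same left-side repeated sequences but keep both enhancers, with hs3a put back in inverted orientation. Both lines were homozygous for their mutation, came from ES cells of 129 background and had the selection cassette removed with cre. For each genotype a resting library was made from freshly purified cells, without culture, and an LPS library after 48 h of culture in medium with LPS at 5 μg per ml, a lipopolysaccharide of bacteria that B cells sense through Toll-like receptors. The effect of LPS can therefore not be told apart from that of culture. By the sample descriptions each genotype was a pool of cells from 4 animals, whereas the methods describe 2 RNA pools of 2 samples each per genotype. The legend of the paper's RNA-seq figure gives yet another number of mice per genotype and describes them as male. Which animals a library stands for is therefore not settled. No wt library was analysed here, so the mutations themselves have no control, and the LPS comparison uses the 2 genotypes as repeats of each other.

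The B cell receptor is a membrane immunoglobulin held together with the Cd79a and Cd79b chains, whose tyrosine motifs are phosphorylated by Lyn and related kinases when antigen binds. Syk then docks on these motifs and, with Btk and the adaptor Blnk, activates phospholipase C, PI3K and, through PKC, the Malt1 and Bcl10 pair, which lead to calcium release, AKT signalling and NF-κB. Receptors such as Cd22, Fcgr2b and Siglecg recruit phosphatases that lower the signal, and the balance of both sides is known to set the threshold at which splenic B cells respond.

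The fragments assigned to named genes numbered between 23615496 and 29776108 per library. Immunoglobulin genes held between 0.574% and 2.05% and mitochondrial genes between 16.6% and 22.7% of them, with resting ΔIRIS cells at 22.7% and the other libraries at 16.6% to 17.6%. LPS ΔIRIS cells stood apart in AY036118, with 111536 reads against 3927 to 11173 in the others, and results without either library are given where a call changes. The 6 listed B cell markers were detected in all libraries, at a summed level of 3670 and 3342 CPM (read counts scaled to library size by TMM) in resting ΔleftPAL and ΔIRIS cells and 1418 and 1165 CPM after LPS. The summed markers of erythroid, myeloid, T and NK cells were higher at rest. The 5 erythroid genes summed to 37666 and 26450 CPM at rest and to 53.9 and 114 CPM after LPS, the 9 myeloid genes to 383 and 506 against 14.6 and 20.5 CPM, the 10 T cell genes to 58.2 and 47.7 against 20.5 and 20.1 CPM, and the 5 NK cell genes to 5.65 and 1.89 against 0.148 and 0.068 CPM. After LPS, 4 T cell genes and 3 myeloid genes were at 0 in each library, with NK cell genes at 0 numbering 3 in ΔleftPAL and 4 in ΔIRIS cells. The 6 genes of dividing cells summed to 372 and 465 CPM at rest and to 3435 and 3852 CPM after LPS, the 6 plasmablast genes stood at 625 and 897 against 1815 and 1279 CPM, and the 6 germinal centre genes at 75.5 and 42.6 against 89.1 and 115 CPM. Spn, which codes CD43 itself, was found at 22.0 CPM in resting and 65.6 CPM in LPS-activated ΔleftPAL cells, with 12.5 and 75.2 CPM in the matching ΔIRIS libraries. In such bulk RNA, fewer cells of a type and less RNA per cell cannot be told apart, and the part of these shifts in the results below was not tested.

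The 31 genes took a smaller share of the reads after LPS. They held 0.915% and 0.818% of the reads in resting ΔleftPAL and ΔIRIS cells and 0.582% and 0.617% after LPS. By edgeR's quasi-likelihood test of the 2 LPS against the 2 resting libraries, 18 of the 30 members that passed the filter on low counts were lower and 2 were higher, Fcgr2b and Rasgrp3, while 10 did not pass. Of all 11286 genes tested, 27.9% were lower and 36.4% higher. The median log2 ratio of LPS over resting was -0.73 over the members in ΔleftPAL cells, where the median over all genes was 0.12, and -0.59 against 0.13 in ΔIRIS cells. A ratio of the same sign in both genotypes was seen for 26 of the 30 members (86.7%), a share near the 88.7% of all genes. The repeats are libraries of different genotypes with 1 residual degree of freedom. For each gene, edgeR draws the spread in part from all tested genes, and each SE printed comes from that same fit. The p-values and SEs thus measure only a spread between these 4 libraries that is shared across genes, and not the spread between animals.

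**Figure D1:**
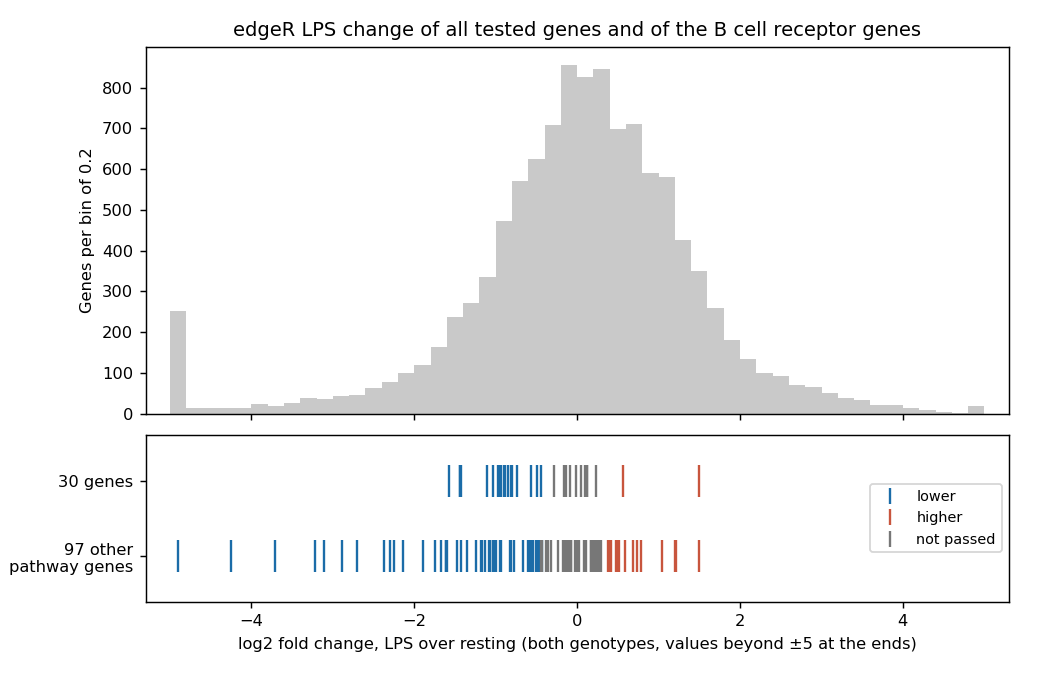
The upper panel counts all 11286 tested genes by their edgeR log2 fold change of LPS over resting (x axis), and the lower panel marks each of 30 B cell receptor genes and 97 other genes of the pathway at its own value, coloured by the test's call, with values beyond 5 in size drawn at the ends. Most marks of the 30 genes lie left of 0, with Fcgr2b at 1.5 farthest to the right and Siglecg at -1.57 farthest to the left.

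Taken within each genotype, 8 members were at least 2-fold lower in LPS-activated than in resting ΔleftPAL cells (Cd79b, Cd37, Cd22, Siglecg, Lyn, Blk, Dapp1 and Bank1), where 15.5% of all genes were, and 6 in ΔIRIS cells (Cd37, Siglecg, Blk, Bank1, Vav3 and Malt1), where 17.3% of all genes were. Fcgr2b was the 1 member at least 2-fold higher, in both genotypes, against 20.1% of all genes in ΔleftPAL and 21.6% in ΔIRIS cells. These counts depend on the scaling. With kallisto TPM more members were at least 2-fold lower in both genotypes, as were more of all genes (22% and 23.7%). Fcgr2b then fell short of 2-fold in ΔleftPAL cells, at a log2 ratio of 0.88. With kallisto estimated counts fewer members were 2-fold lower in ΔleftPAL cells. Some members lay close to the 2-fold threshold. Cd79b was 2.00-fold lower in ΔleftPAL cells, and Cd72 and Dapp1 were 1.98-fold and 1.97-fold lower in ΔIRIS cells.

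**Figure D2:**
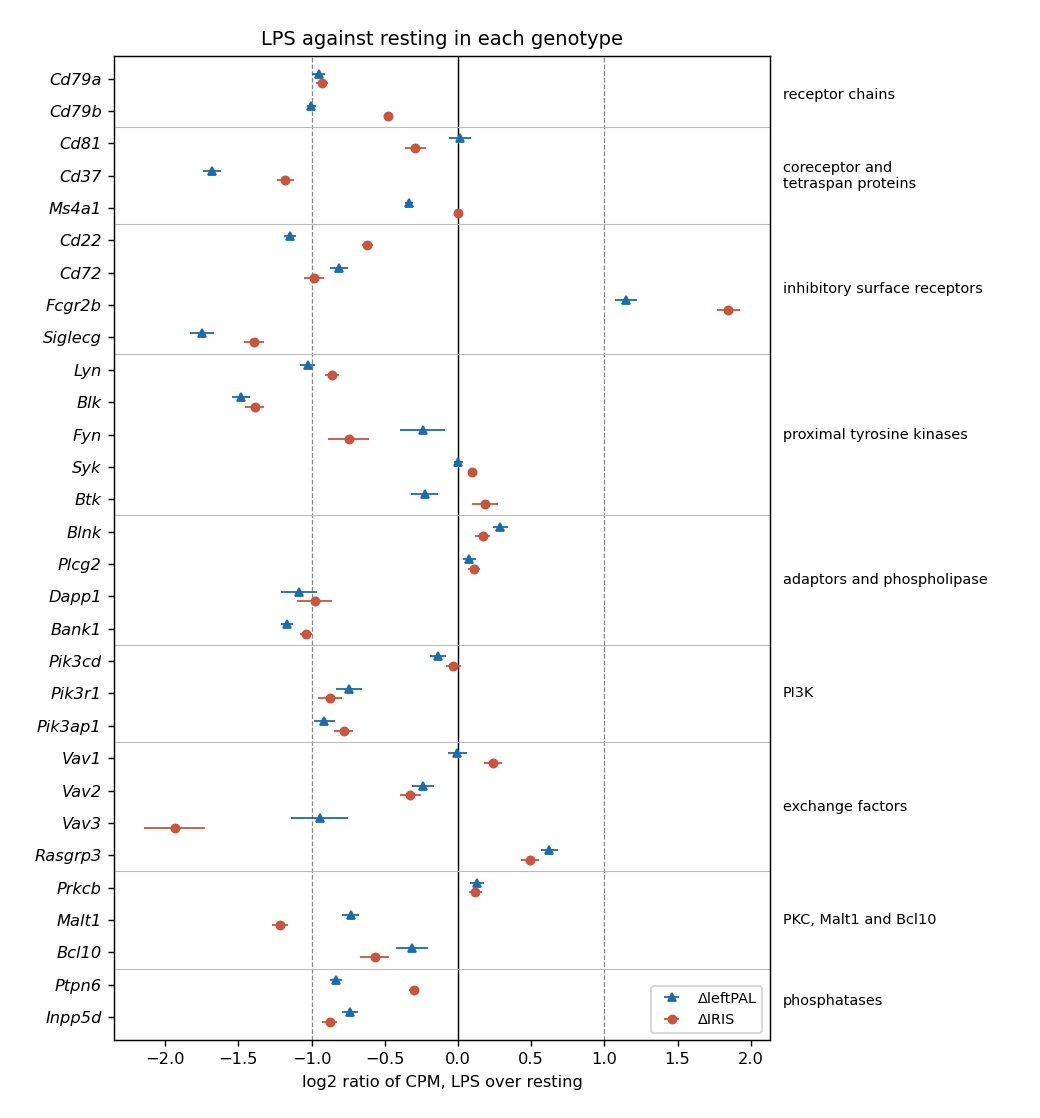
Log2 ratios of CPM, LPS over resting, for the 30 members with enough reads, in rows by role, with triangles for ΔleftPAL and circles for ΔIRIS. Bars are exact 95% intervals that cover counting error only, and dashed lines mark 2-fold. Fcgr2b is the only member beyond the right line, and Cd37, Siglecg, Blk and Bank1 lie beyond the left line in both genotypes.

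Both signalling chains of the receptor fell on LPS. Cd79a (chr7:24897381-24902197, plus strand of GRCm38, the assembly also called mm10) and Cd79b (chr11:106311341-106314762, minus strand) code the chains that carry the tyrosine motifs. Cd79a was measured at 463 CPM in resting and 239 CPM in LPS-activated ΔleftPAL cells, with 477 and 250.2 CPM in the matching ΔIRIS libraries. Its gene count was 0.787 to 0.805 of the kallisto estimate, against 0.929 to 1.03 for the other tested members. The resting values lay close together and so did the LPS values, with a log2 fold change of -0.94 ± 0.12 (SE, adjusted p = 0.00150) by edgeR. For Cd79b the levels were 977 CPM at rest against 488 CPM after LPS in ΔleftPAL cells, and 618 against 444 CPM in ΔIRIS cells. The LPS values were alike but the resting values were not, and the log2 fold change was -0.74 ± 0.16 (SE, adjusted p = 0.0114). This call did not hold when any of 3 libraries was left out, with a log2 change of -0.41 (adjusted p = 0.0609) without resting ΔleftPAL, -0.84 (0.0890) without LPS ΔleftPAL and -0.71 (0.142) without LPS ΔIRIS cells (range over all alternatives 0.000253 to 0.142). The size of the change thus shrank without resting ΔleftPAL cells and stayed close to that of all 4 libraries without either LPS library. Per kb of exon, Cd79b was the more abundant of the pair in every library, at 2.15 and 1.32 times the Cd79a level in resting ΔleftPAL and ΔIRIS cells and 2.08 and 1.81 times after LPS.

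Of the coreceptor and tetraspan genes, Cd37 fell while Cd81 and Ms4a1 did not pass the test. Cd37 codes a tetraspanin of mature B cells, and it stood at 323 and 255 CPM in the resting ΔleftPAL and ΔIRIS libraries and 101 and 113 CPM in their LPS counterparts. All resting values exceeded all LPS values, with a log2 fold change of -1.43 ± 0.16 (SE, adjusted p = 0.00115), which made Cd37 3.20-fold lower in ΔleftPAL and 2.26-fold lower in ΔIRIS cells. Cd81, the tetraspanin of the coreceptor complex, was found at 113 CPM in resting and 114 CPM in LPS-activated ΔleftPAL cells, with 117 and 95.4 CPM in the matching ΔIRIS libraries. Its libraries spanned a narrow range, with a log2 fold change of -0.14 ± 0.14 (SE, adjusted p = 0.418). Ms4a1 codes CD20, the B cell surface protein targeted by rituximab, and had 946 CPM at rest against 748 CPM after LPS in ΔleftPAL cells, and 915 against 916 CPM in ΔIRIS cells. The ΔleftPAL ratio was -0.34 (95% interval -0.36 to -0.31) on the log2 scale and the ΔIRIS ratio 0.00 (95% interval -0.02 to 0.03), and the combined change of -0.17 ± 0.14 (SE, adjusted p = 0.330) did not pass.

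The inhibitory receptors went in opposite directions. Fcgr2b (chr1:170960558-170976547, minus strand), the inhibitory Fc receptor that binds IgG in immune complexes, rose, whereas Cd22 and Siglecg, lectins that bind sialic acid, and Cd72, a C-type lectin-like receptor for CD100, fell. Fcgr2b counted 1928, 4711, 1689 and 6121 reads in resting ΔleftPAL, LPS ΔleftPAL, resting ΔIRIS and LPS ΔIRIS cells, or 78.9 CPM in resting and 175 CPM in LPS-activated ΔleftPAL cells, with 58.1 and 209 CPM in the matching ΔIRIS libraries. Both LPS libraries were above both resting libraries. The log2 fold change was 1.5 ± 0.20 (SE, adjusted p = 0.00187), and the level was 2.22-fold higher in ΔleftPAL and 3.59-fold higher in ΔIRIS cells. Fcgr2b is also expressed by myeloid cells, whose 9 listed genes summed to 383 and 506 CPM at rest and to 14.6 and 20.5 CPM after LPS. Of these 9, Itgam went up in ΔIRIS cells, from 10.5 to 15.4 CPM, and made up most of their sum after LPS. The part of myeloid cells in the Fcgr2b values was not tested.

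Siglecg (chr7:43408204-43418358, plus strand) had 4844, 1592, 5985 and 2297 reads in the same order, and 198 and 206 CPM in the resting ΔleftPAL and ΔIRIS libraries and 59.1 and 78.4 CPM in their LPS counterparts. This was the largest fall among the tested members by the fitted value, -1.57 ± 0.15 (SE, adjusted p = 0.000630), or 3.36-fold lower in ΔleftPAL and 2.63-fold lower in ΔIRIS cells. Cd22 stood at 637 CPM at rest against 288 CPM after LPS in ΔleftPAL cells, and 489 against 318 CPM in ΔIRIS cells, a log2 fold change of -0.88 ± 0.16 (SE, adjusted p = 0.00608) that missed the threshold without the LPS ΔleftPAL library, at an adjusted p of 0.0502 (range over all alternatives 1.39e-05 to 0.0502). Cd72 was measured at 221 CPM in resting and 126 CPM in LPS-activated ΔleftPAL cells, with 178 and 90.1 CPM in the matching ΔIRIS libraries, with a log2 fold change of -0.90 ± 0.13 (SE, adjusted p = 0.00235) whose adjusted p became 0.0673 without the LPS ΔIRIS library (range 2.35e-07 to 0.0673). In level per kb of exon, Fcgr2b was 0.161 and 0.154 times Cd22 at rest in ΔleftPAL and ΔIRIS cells and 0.788 and 0.850 times after LPS. Against Siglecg its level was 0.497 and 0.352 times at rest and 3.69 and 3.33 times after LPS. These ratios divide by all exons of a gene, and on kallisto TPM, which uses transcript lengths, Fcgr2b was 0.955 and 0.701 times Siglecg at rest and 6.90 and 5.82 times after LPS, so at rest the pair lay nearer to each other.

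Cd5, which marks B-1a cells as well as T cells, was the member with too few reads for the test. It counted 97, 8, 68 and 9 reads in the same order, and its log2 ratio was -3.74 (95% interval -4.99 to -2.71) in ΔleftPAL and -2.93 (95% interval -4.12 to -1.92) in ΔIRIS cells. Once the filter was lowered to a mean of 10 counts, it passed as lower with an adjusted p of 0.00140 in edgeR, the 1 alternative that tested it. The T cell genes Cd3d, Cd3e and Cd3g counted 47, 17 and 50 reads in resting ΔleftPAL and 18, 5 and 11 reads in resting ΔIRIS cells, with 0 reads after LPS in both, and Cd4 counted 273, 2, 496 and 1 reads. Cd8a, Thy1, Trac and Tcf7 were also lower after LPS in both genotypes. Lck counted 752, 487, 537 and 503 reads in resting ΔleftPAL, LPS ΔleftPAL, resting ΔIRIS and LPS ΔIRIS cells. Cd28 had 51, 48, 39 and 65 reads in that order, so it was higher after LPS in ΔIRIS cells. The part of T cells in the Cd5 values was not tested.

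The Src-family kinases fell, whereas Syk and Btk did not pass the test. Blk (chr14:63372837-63417187, minus strand), a kinase of the Src family found mainly in B cells, stood at 292 and 238 CPM in the resting ΔleftPAL and ΔIRIS libraries and 105 and 90.9 CPM in their LPS counterparts, a log2 fold change of -1.43 ± 0.12 (SE, adjusted p = 0.000500) that makes it 2.79-fold lower in ΔleftPAL and 2.62-fold lower in ΔIRIS cells. Lyn, which phosphorylates both the receptor chains and the inhibitory receptors, had 333 CPM at rest against 164 CPM after LPS in ΔleftPAL cells, and 338 against 186 CPM in ΔIRIS cells. Its log2 fold change was -0.94 ± 0.12 (SE, adjusted p = 0.00176), and all resting values lay well above the LPS values. Fyn counted 727, 678, 1134 and 682 reads in resting ΔleftPAL, LPS ΔleftPAL, resting ΔIRIS and LPS ΔIRIS cells. Its change of -0.50 ± 0.17 (SE, adjusted p = 0.0487) barely passed, and it was lost with DESeq2 (adjusted p = 0.0722), with kallisto estimated counts (0.108), with TMM factors made without immunoglobulin genes (0.0542), and when resting ΔIRIS (0.129, at a log2 change of -0.30), LPS ΔIRIS (0.192) or LPS ΔleftPAL cells (0.113) were left out (range over all alternatives 0.00978 to 0.192). Fyn is also expressed by T cells, whose listed genes summed to 58.2 and 47.7 CPM at rest and 20.5 and 20.1 CPM after LPS. Of the sums after LPS, Lck, a kinase of T cells, made up 18.1 and 17.2 CPM, whereas Cd3d, Cd3e and Cd3g had 0 reads there and Cd4 and Cd8a at most 2. At rest Lck stood at 30.8 and 18.5 CPM, and Cd28 went from 2.09 and 1.34 to 1.78 and 2.22 CPM. T cells had 10 listed genes in all, and their part in the Fyn values was not tested.

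Syk (chr13:52583173-52648792, plus strand), the kinase that reads the phosphorylated motifs, was found at 602 CPM in resting and 603 CPM in LPS-activated ΔleftPAL cells, with 635 and 678 CPM in the matching ΔIRIS libraries. These 4 values differed little, and the log2 fold change was 0.05 ± 0.12 (SE, adjusted p = 0.737). The level of Blk relative to Syk, both per kb of exon, went from 1.83 to 0.656 in ΔleftPAL and from 1.42 to 0.507 in ΔIRIS cells, and Lyn per Syk from 1.27 to 0.624 and from 1.22 to 0.631. On kallisto TPM both ratios were below 1 in every library, with Blk per Syk going from 0.936 to 0.352 in ΔleftPAL and from 0.697 to 0.271 in ΔIRIS cells, and Lyn per Syk from 0.939 to 0.434 and from 0.821 to 0.440. Btk, the X-linked kinase whose loss causes agammaglobulinaemia, stood at 80.3 CPM at rest against 68.7 CPM after LPS in ΔleftPAL cells, and 66.3 against 75.4 CPM in ΔIRIS cells. On the log2 scale, LPS over resting came to -0.23 (95% interval -0.32 to -0.13) in ΔleftPAL and 0.19 (95% interval 0.10 to 0.28) in ΔIRIS cells, on either side of 0, and -0.02 ± 0.15 (SE, adjusted p = 0.916) in the combined test. With kallisto TPM the ratio was below 0 in both genotypes, at -0.51 and -0.15.

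Among the adaptors, Bank1 and Dapp1 fell, while the core pair of Blnk and phospholipase Plcg2 did not pass. Bank1, a B cell scaffold with ankyrin repeats that binds Lyn, had 603 and 553 CPM in the resting ΔleftPAL and ΔIRIS libraries and 269 and 269 CPM in their LPS counterparts, and the values of the genotypes nearly coincided after LPS. It was 2.24-fold lower in ΔleftPAL and 2.05-fold lower in ΔIRIS cells, with a fitted log2 change of -1.10 ± 0.12 (SE, adjusted p = 0.000970). Dapp1, an adaptor that binds the lipid products of PI3K, stood at 62.4 CPM at rest against 29.4 CPM after LPS in ΔleftPAL cells, and 55.9 against 28.4 CPM in ΔIRIS cells, a log2 change of -1.03 ± 0.12 (SE, adjusted p = 0.00130). Blnk, which links Syk to Btk and phospholipase, was measured at 211 CPM in resting and 258 CPM in LPS-activated ΔleftPAL cells, with 205 and 230.3 CPM in the matching ΔIRIS libraries, with a log2 fold change of 0.23 ± 0.12 (SE, adjusted p = 0.149), and passed as higher only with kallisto estimated counts (adjusted p = 0.0301, range over all alternatives 0.0301 to 0.595). Plcg2, which makes the messengers for calcium release and PKC, had 295 and 292 CPM in the resting ΔleftPAL and ΔIRIS libraries and 311 and 315 CPM in their LPS counterparts. Its 4 values lay within a narrow span and its log2 fold change was 0.09 ± 0.12 (SE, adjusted p = 0.517).

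In the PI3K group the catalytic subunit did not pass the test while a regulatory subunit and an adaptor fell. Pik3cd, the catalytic subunit enriched in leukocytes, stood at 237 CPM at rest against 215 CPM after LPS in ΔleftPAL cells, and 222 against 217 CPM in ΔIRIS cells, a log2 change of -0.08 ± 0.12 (SE, adjusted p = 0.566). Pik3r1, the regulatory subunit, had 105 CPM in resting and 62.8 CPM in LPS-activated ΔleftPAL cells, with 121 and 66.2 CPM in the matching ΔIRIS libraries, with a fitted log2 change of -0.81 ± 0.13 (SE, adjusted p = 0.00328). Pik3ap1, also called BCAP, an adaptor that brings PI3K to the receptor complex, was found at 179 and 171 CPM in the resting ΔleftPAL and ΔIRIS libraries and 94.9 and 99.8 CPM in their LPS counterparts. Its fitted log2 change was -0.85 ± 0.13 (SE, adjusted p = 0.00279), and for both genes all resting values were above all LPS values.

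The exchange factors were divided, with Rasgrp3 higher, Vav3 lower, and Vav1 and Vav2 not passing. Rasgrp3 (chr17:75435905-75529043, plus strand), which activates RAS downstream of diacylglycerol, counted 3677, 6249, 3965 and 5624 reads in resting ΔleftPAL, LPS ΔleftPAL, resting ΔIRIS and LPS ΔIRIS cells, or 151 CPM at rest against 232 CPM after LPS in ΔleftPAL cells, and 136 against 192 CPM in ΔIRIS cells. Both LPS values lay above both resting values, 1.54-fold higher in ΔleftPAL and 1.41-fold higher in ΔIRIS cells, with a log2 fold change of 0.56 ± 0.12 (SE, adjusted p = 0.0113) that did not pass without the LPS ΔleftPAL library (adjusted p = 0.145, range over all alternatives 0.00206 to 0.145). Vav3, an exchange factor for RAC, was rare and counted 593, 340, 908 and 240 reads in the same order. It was 1.92-fold lower in ΔleftPAL and 3.81-fold lower in ΔIRIS cells, and -1.43 ± 0.26 (SE, adjusted p = 0.00582) in the combined test. Vav1, the form typical of blood cells, stood at 140.0 and 134 CPM in the resting ΔleftPAL and ΔIRIS libraries and 139.7 and 158 CPM in their LPS counterparts, a log2 change of 0.12 ± 0.13 (SE, adjusted p = 0.471). Vav2 had 121 CPM in resting and 103 CPM in LPS-activated ΔleftPAL cells, with 121 and 96.9 CPM in the matching ΔIRIS libraries, a log2 change of -0.28 ± 0.12 (SE, adjusted p = 0.0970).

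Of PKC, Malt1 and Bcl10, which lead from the receptor to NF-κB, Malt1 and Bcl10 fell and Prkcb did not pass. Malt1, a paracaspase protease, stood at 237 CPM at rest against 143 CPM after LPS in ΔleftPAL cells, and 305 against 131 CPM in ΔIRIS cells, with a log2 fold change of -0.97 ± 0.16 (SE, adjusted p = 0.00386). Bcl10, its partner, had 60.9 and 72.0 CPM in the resting ΔleftPAL and ΔIRIS libraries and 49.0 and 48.5 CPM in their LPS counterparts. The change of -0.44 ± 0.13 (SE, adjusted p = 0.0301) was lost with kallisto estimated counts (adjusted p = 0.0766) and without LPS ΔleftPAL (0.124), resting ΔIRIS (0.0929) or LPS ΔIRIS cells (0.136), with a range over all alternatives of 0.0136 to 0.136. Prkcb, the PKC isoform that acts upstream of both, was measured at 269 CPM in resting and 293 CPM in LPS-activated ΔleftPAL cells, with 288 and 313 CPM in the matching ΔIRIS libraries, a log2 change of 0.12 ± 0.12 (SE, adjusted p = 0.390).

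The phosphatases fell. Inpp5d, the lipid phosphatase SHIP that opposes PI3K, stood at 276 and 294 CPM in the resting ΔleftPAL and ΔIRIS libraries and 166 and 160.4 CPM in their LPS counterparts, a log2 change of -0.80 ± 0.12 (SE, adjusted p = 0.00298). Ptpn6, the tyrosine phosphatase SHP that Cd22 and Cd72 recruit, had 576 CPM at rest against 323 CPM after LPS in ΔleftPAL cells, and 448 against 363 CPM in ΔIRIS cells. Its resting values differed more than its LPS values, and the change of -0.57 ± 0.16 (SE, adjusted p = 0.0284) was lost with kallisto estimated counts (adjusted p = 0.0612) and without resting ΔleftPAL (0.0730), LPS ΔleftPAL (0.175) or LPS ΔIRIS cells (0.0930), with a range over all alternatives of 0.00583 to 0.175. Lyn, Syk, Btk, Plcg2, Vav1, Ptpn6 and Inpp5d are all expressed by myeloid cells too, and the part of the lower myeloid markers after LPS in their values was not tested.

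Compared per kb of exon, the members spanned a wide range of levels. Cd79b led in every library, with 432 to 683 CPM per kb in the resting libraries, followed by Cd79a with 318 to 327. By mean resting level Ptpn6, Bank1 and Ms4a1 came next, at 159.7 to 206, 170.4 to 186 and 148 to 153 CPM per kb. The ranges of Ptpn6 with Bank1 and of Cd22 (98.0 to 128) with Blk (96.1 to 118) overlapped, so the order within these pairs does not exceed the spread between libraries. Cd5 was last, with 1.13 to 1.92 CPM per kb at rest. Fcgr2b moved from rank 26 at rest to rank 10 after LPS and Rasgrp3 from rank 23 to rank 12, whereas Blk went from rank 7 to rank 16 and Cd37 from rank 9 to rank 20. Near the lower end, the order of Pik3r1, Fyn, Vav3 and Cd5 was the same in both states. The order depends on the length used. By kallisto TPM, Fcgr2b moved from rank 20 to rank 6, Rasgrp3 from rank 26 to rank 19, Blk from rank 12 to rank 20 and Cd37 from rank 6 to rank 11. Cd22 was then the highest after the signalling chains at rest, with part of its TPM from short transcripts of few reads. In resting ΔleftPAL cells its ENSMUST00000190170, of 420 bases, held 14.5% of the gene's TPM with 297 estimated reads. ENSMUST00000186154, of 3819 bases, held 24.3% with 8161.

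**Figure D3:**
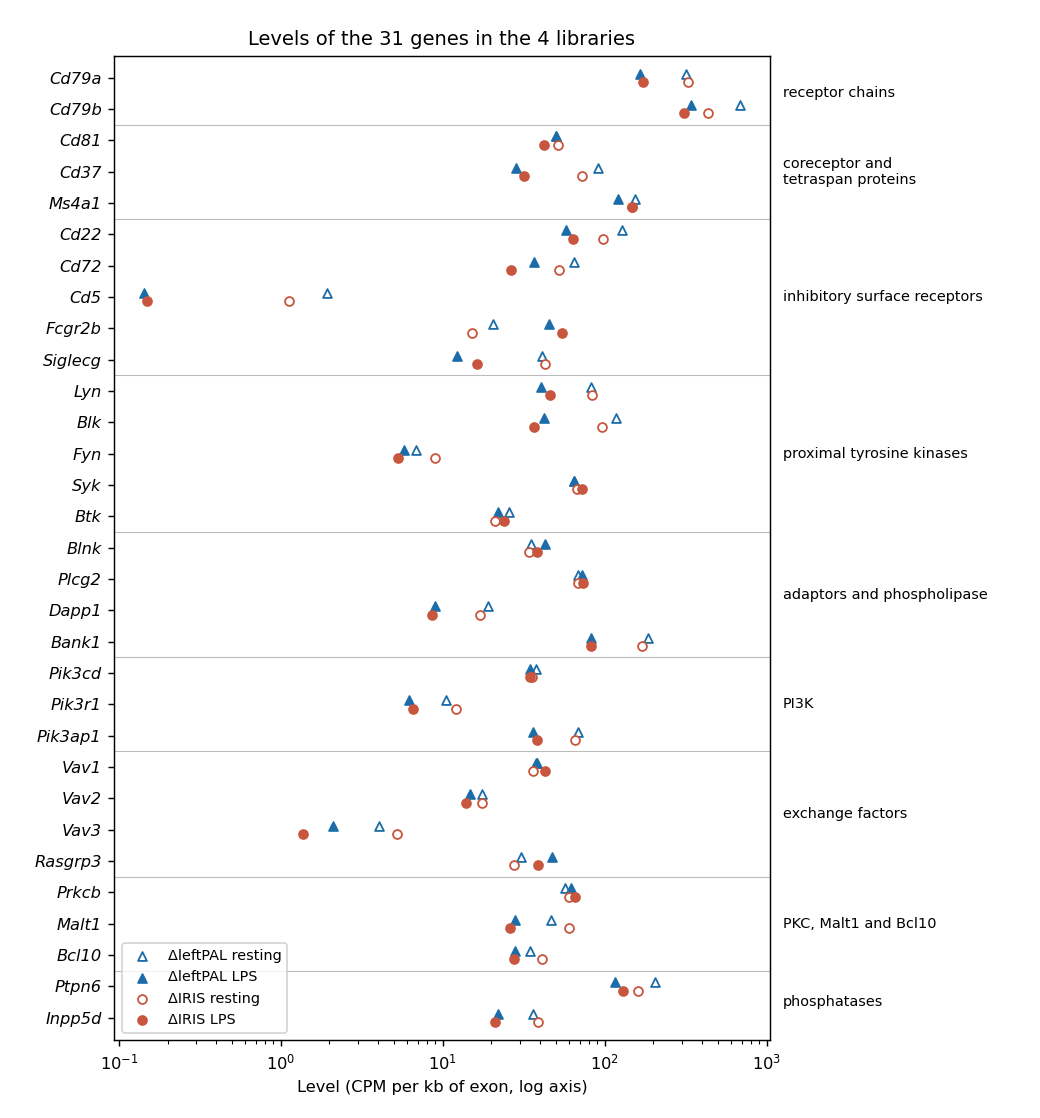
Level of each of the 31 genes in CPM per kb of exon (log axis) in every library, in rows by role, with triangles for ΔleftPAL and circles for ΔIRIS, open at rest and filled after LPS. The signalling chains lie farthest to the right and Cd5 farthest to the left, and for Syk, Plcg2, Prkcb and Pik3cd the open and filled marks nearly coincide.

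The transcripts of 8 members were listed as 1 each, and among the other members Syk was the only 1 in which a transcript's share moved by at least 20 percentage points between resting and LPS in the same direction in both genotypes. How often a shift of this size occurs among all genes was not counted. By kallisto TPM, which scales transcript abundance per length to the same sum in each library, ENSMUST00000055087 made up 55.3% and 50.5% of Syk in resting ΔleftPAL and ΔIRIS cells and 81.1% and 82.0% after LPS. ENSMUST00000120135 went from 23.9% and 22.5% to 7.53% and 7.92%. These share 12 of their 14 exons exactly and code the same 629 residues, and their starts lie 13680 bases apart, so they differ in where transcription begins and not in the protein they code. Summed over transcripts by the nearest RefSeq start, the distal start, upstream of the other, gave 36.4% and 38.0% of Syk TPM at rest and 14.8% and 14.5% after LPS. The level from this start was 62.3 and 69.8 TPM at rest and 20.7 and 21.9 TPM after LPS, while the start nearest the coding exons gave 109 and 114 TPM against 119 and 129 TPM. Less of the distal form was thus estimated after LPS while the gene count of Syk did not pass the test. These shares come from 1 estimate per library and have no error of their own.

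Pik3r1 also has starts far apart, 75587 bases between its leading long and short transcripts, which code 724 and 454 residues. The long form carries the domains that precede the SH2 region, which the short forms lack. The internal start of the short forms gave 23.3% and 32.1% of Pik3r1 TPM in resting ΔleftPAL and ΔIRIS cells and 9.91% and 12.4% after LPS. In levels this was 6.82 and 11 TPM against 1.31 and 1.66 TPM, while the long-form start went from 19.4 and 20.3 TPM to 10.1 and 9.72 TPM, so that both were lower after LPS. On this scale the median log2 ratio of all genes was itself -0.27 in ΔleftPAL and -0.26 in ΔIRIS cells. For Rasgrp3 the main start held 94.5% and 91.7% at rest and 98.3% and 94.5% after LPS. Not every minor start fell in share. In Pik3cd, a minor start went up, from 2.89% and 5.77% to 5.97% and 6.60%. Another went down in ΔleftPAL and up in ΔIRIS cells, and the minor start of Vav3 went down in both.

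**Figure D4:**
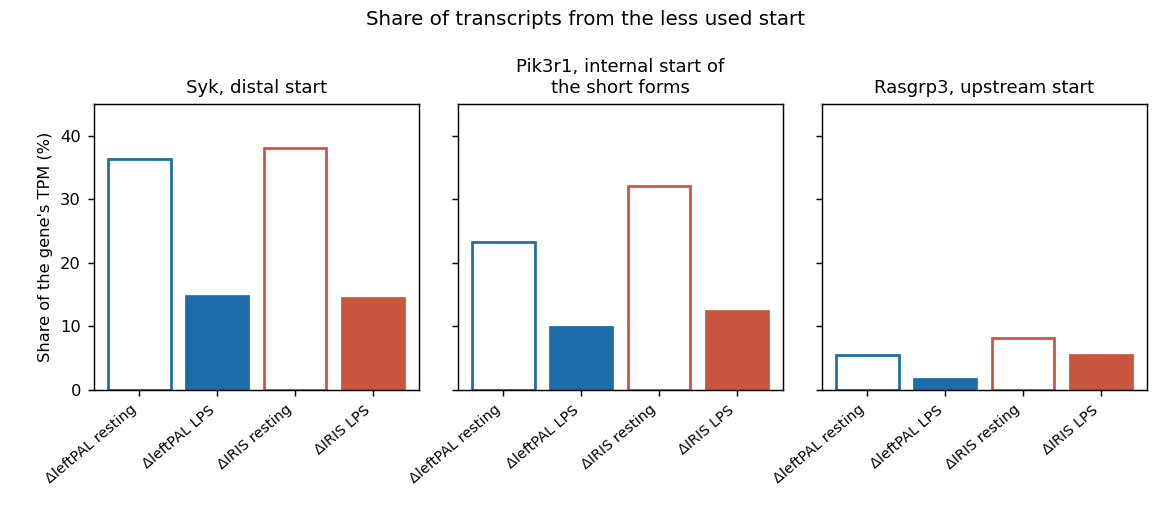
Percent of each gene's TPM that kallisto assigned to transcripts of the less used start of Syk, Pik3r1 and Rasgrp3 in the 4 libraries, blue for ΔleftPAL and red for ΔIRIS, with open bars at rest and filled bars after LPS. For these genes each LPS bar is lower than the resting bar of its genotype, which did not hold for Pik3cd, not drawn here. The Syk bars go from 36.4% and 38.0% to 14.8% and 14.5%.

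Of the 31 genes, 26 were matched in the RefSeq promoter table of GRCm38.p6, and 5 have starts more than 1000 bases apart. The stretches before 4 starts are printed here, those of Pik3r1 and Syk because the shares of their starts are described above and that of Rasgrp3 because the gene rose. The window before the distal Syk start lies wholly within an annotated exon and is not printed. Each is given from its 5′ end, cut where an annotated exon begins, and capitals mark the E-box CAGGTG. The Syk stretch before the start nearest the coding exons is chr13:52596632-52596852, plus strand. The Pik3r1 stretches are chr13:101768218-101768467 for the long form and chr13:101692631-101692880 for the short form, minus strand, and the Rasgrp3 stretch before the main start is chr17:75465288-75465485, plus strand.
Syk proximal: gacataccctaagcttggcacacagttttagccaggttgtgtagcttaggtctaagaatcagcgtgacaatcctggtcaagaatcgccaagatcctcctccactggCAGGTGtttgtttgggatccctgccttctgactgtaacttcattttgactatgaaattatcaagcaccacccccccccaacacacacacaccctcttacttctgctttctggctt
Pik3r1 long: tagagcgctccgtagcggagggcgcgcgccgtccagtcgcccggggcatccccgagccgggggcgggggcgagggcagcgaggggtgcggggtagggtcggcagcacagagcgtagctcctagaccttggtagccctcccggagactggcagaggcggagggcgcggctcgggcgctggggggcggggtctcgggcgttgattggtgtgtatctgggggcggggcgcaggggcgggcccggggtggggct
Pik3r1 short: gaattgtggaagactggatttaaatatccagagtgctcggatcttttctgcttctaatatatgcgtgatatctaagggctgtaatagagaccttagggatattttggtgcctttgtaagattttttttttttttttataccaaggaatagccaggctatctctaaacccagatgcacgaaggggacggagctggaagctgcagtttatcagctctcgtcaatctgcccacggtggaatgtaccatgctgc
Rasgrp3 main: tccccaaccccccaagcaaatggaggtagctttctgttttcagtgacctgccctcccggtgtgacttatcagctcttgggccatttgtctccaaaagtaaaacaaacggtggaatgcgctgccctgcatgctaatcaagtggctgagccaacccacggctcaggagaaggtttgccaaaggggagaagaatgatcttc

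On either strand of the 250 bases before the start, CAGGTG was found in 14 of 34 member windows and in 17.2% of all 32851 windows, and GAGGAA, the core bound by PU.1, in 11 of 34 and 23.3% of all. The octamer ATGCAAAT, bound by Oct factors, occurred in 2 member windows, those of Blnk and Prkcb, and in 1.6% of all. Among the 4 stretches printed, the Syk stretch holds 1 CAGGTG and the others hold none of these letters. A match describes the sequence and is not a bound site.

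Smaller shifts between transcripts were seen in other members. Fcgr2b occurs with or without an exon of 141 coding bases in its cytoplasmic part, which adds 47 residues. The transcript with it, ENSMUST00000159969, made up 14.7% and 11.2% of Fcgr2b TPM in resting ΔleftPAL and ΔIRIS cells and 22.7% and 22.6% after LPS. ENSMUST00000081103, which lacks it, held 48.1% and 44.9% against 50.8% and 53.0%. Lyn has a form of 512 and one of 491 residues, and the transcript of the longer, ENSMUST00000041377, went from 55.8% and 58.2% to 66.4% and 69.9%. In Prkcb the forms of 673 and 671 residues differ in their last coding exons, and the latter, ENSMUST00000064921, went from 42.3% and 40.2% to 29.9% and 33.5%. By TPM, the leading transcript differed between libraries in 7 members, Cd22, Cd72, Dapp1, Fyn, Inpp5d, Pik3cd and Prkcb. This count was not set against all genes, so whether it is unusual is not known. These shares are per length, and some leads rest on few estimated reads. In LPS ΔleftPAL cells, Cd22 ENSMUST00000187436, of 358 bases, had 148 against 2954 for ENSMUST00000186154. In resting ΔleftPAL cells, Inpp5d ENSMUST00000163222, of 364 bases, had 238 against 2558 for ENSMUST00000169754. In LPS ΔIRIS cells, Dapp1 ENSMUST00000184222 had 177 against 647 for ENSMUST00000029806. Cd72 leads were also leads in reads. The pair with the highest mean TPM of each of these 7 members is given here in the order of resting ΔleftPAL, LPS ΔleftPAL, resting ΔIRIS and LPS ΔIRIS cells. For Cd72, ENSMUST00000107926 held 19.4%, 16.8%, 22.5% and 17.7%, and ENSMUST00000098105 held 14.6%, 26.1%, 20.5% and 26.4%, so that the order of the pair turned over on LPS in both genotypes. In Prkcb, ENSMUST00000064989 held 40.2%, 47.0%, 41.6% and 47.3%, the lead in all libraries but resting ΔleftPAL. For Dapp1, ENSMUST00000029806 held 66.1%, 61.7%, 53.7% and 45.4%, and ENSMUST00000184222 held 22.7%, 27.9%, 33.5% and 47.3%, and the second led only in LPS ΔIRIS cells. For Cd22, ENSMUST00000186154 held 24.3%, 17.1%, 24.2% and 18.6%, and ENSMUST00000187436 held 10.5%, 18.6%, 14.7% and 17.0%, with a wide gap at rest and shares within 2 points of each other after LPS. For Pik3cd, ENSMUST00000105690 held 22.6%, 24.6%, 18% and 26.4%, and ENSMUST00000146612 held 20.9%, 23.4%, 20.1% and 18.2%, the lead passing to a further transcript, ENSMUST00000038859, in LPS ΔleftPAL cells. In Fyn and Inpp5d too, a further transcript led in some libraries. For Fyn, ENSMUST00000136659 held 31.2%, 16.7%, 24.7% and 24.2%, and ENSMUST00000063091 held 19.1%, 22.3%, 18.5% and 30.3%, while ENSMUST00000135242 held 13.0%, 25.2%, 12.1% and 37.3% and led after LPS in both genotypes. For Inpp5d, ENSMUST00000163222 held 32.1%, 24.1%, 31.7% and 26.5%, and ENSMUST00000163576 held 25.7%, 13.3%, 19.2% and 10.4%, while ENSMUST00000169754 held 12.4%, 19.8%, 20.2% and 30.03% and led in LPS ΔIRIS cells.

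Between the genotypes, no member differed by 2-fold. At rest, 0 of 30 members were at least 2-fold higher or lower in ΔIRIS than in ΔleftPAL cells, where 1.83% and 1.02% of all genes were. After LPS the count was again 0 in either direction, against 0.567% and 1.41% of all genes. As a log2 ratio of ΔIRIS to ΔleftPAL, the median was -0.04 over the members and 0.00 over all genes at rest, and 0.01 against 0.03 after LPS. With 1 library per genotype and state these differences have no repeat and no test, and their intervals cover counting error only.

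At rest 4 of 30 members differed by more than 1.3-fold, where 25.5% of all genes did. Cd79b was the largest, 1.58-fold lower in ΔIRIS cells at a log2 ratio of -0.66 (95% interval -0.69 to -0.63). Fcgr2b was also lower, at -0.44 (95% interval -0.54 to -0.35), as was Cd22 at -0.38 (95% interval -0.41 to -0.35), and Fyn was higher at 0.39 (95% interval 0.25 to 0.53). Ptpn6 at -0.36 (95% interval -0.40 to -0.33), Vav3 at 0.36 (95% interval 0.21 to 0.52) and Malt1 at 0.36 (95% interval 0.31 to 0.41) lay just inside this limit. After LPS 3 members differed by more than 1.3-fold, against 14.1% of all genes. Vav3 was lower in ΔIRIS cells, at -0.62 (95% interval -0.87 to -0.38), and so was Cd72 at -0.48 (95% interval -0.55 to -0.41), while Siglecg was higher at 0.41 (95% interval 0.31 to 0.50). The sign was the same at rest and after LPS in 12 of 30 members (40%) and in 56.2% of all genes. Cd79b and Blk were lower in ΔIRIS cells in both states, at -0.14 (95% interval -0.17 to -0.10) and -0.20 (95% interval -0.28 to -0.13) after LPS, while Vav3, Fcgr2b, Cd22 and Ptpn6 were on opposite sides of 0.

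**Figure D5:**
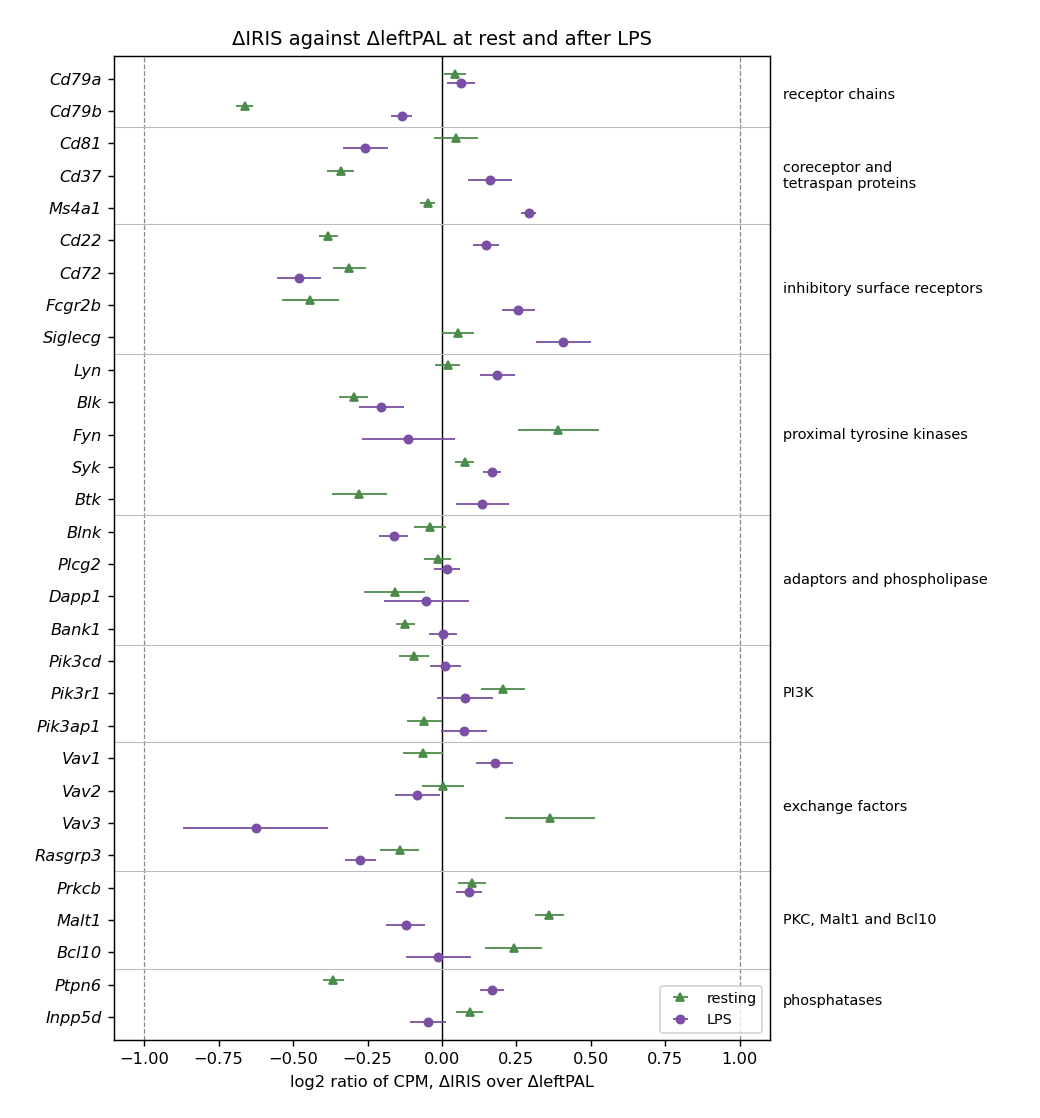
Log2 ratios of CPM, ΔIRIS over ΔleftPAL, at rest (triangles) and after LPS (circles) for the 30 members with enough reads, in rows by role. Bars are exact 95% intervals for counting error only, dashed lines mark 2-fold, and all marks lie between them, with Cd79b at rest and Vav3 after LPS the farthest from 0.

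Among 100 other genes of the pathway, 97 had enough reads, of which edgeR called 51 lower (52.6%) and 15 higher (15.5%) on LPS, against 27.9% and 36.4% of all genes. The share of lower genes was 9 of 11 in the surface and coreceptor group, 5 of 11 kinases, 11 of 19 adaptors and ligases, 8 of 14 in the PI3K branch, 6 of 15 in the calcium branch, 6 of 13 in the group of PKC and small GTPases, 3 of 6 in the IKK group and 3 of 8 phosphatases. Those at least 2-fold lower in both genotypes numbered 26 of 97 and those at least 2-fold higher 3, where 13.1% and 17.3% of all genes were. Cr2, the complement receptor CD21 that joins Cd81 in the coreceptor, stood at 798 CPM at rest against 179 CPM after LPS in ΔleftPAL cells, and 515 against 85.8 CPM in ΔIRIS cells, a log2 fold change of -2.37 ± 0.16 (SE, adjusted p = 0.000278).

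Other named genes that were lower include receptors and a kinase that myeloid cells also express. On the log2 scale the inhibitory receptor Pirb changed by -3.11 ± 0.27 (SE, adjusted p = 0.000513), the collagen receptor Lair1 by -4.25 ± 0.23 (SE, adjusted p = 0.000194) and the Src-family kinase Fgr by -2.89 ± 0.20 (SE, adjusted p = 0.000316). The adaptor Gab2 changed by -3.22 ± 0.40 (SE, adjusted p = 0.00148), the catalytic subunit Pik3cb by -2.71 ± 0.49 (SE, adjusted p = 0.00566) and Dusp1, a phosphatase of MAP kinases, by -3.71 ± 0.26 (SE, adjusted p = 0.000314). Gcsam, a signalling adaptor of germinal centre B cells, counted 120, 0, 97 and 0 reads in resting ΔleftPAL, LPS ΔleftPAL, resting ΔIRIS and LPS ΔIRIS cells. It was at least 44.1-fold lower in ΔleftPAL and at least 32.6-fold lower in ΔIRIS cells, taking 3 counts as the floor of each LPS library. The genes that were higher were Fcrl5, an Fc receptor-like protein, Mapk3, the kinase ERK1, and Hras. Fcrl5 stood at 36.6 and 23.5 CPM in the resting ΔleftPAL and ΔIRIS libraries and 74.6 and 91.4 CPM in their LPS counterparts, a log2 change of 1.49 ± 0.24 (SE, adjusted p = 0.00364). Mapk3 changed by 1.21 ± 0.17 (SE, adjusted p = 0.00213) and Hras by 1.20 ± 0.17 (SE, adjusted p = 0.00236).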

How the data were processed

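The authors depleted total RNA of ribosomal RNA, sequenced stranded paired libraries and mapped the reads to mm10 with STAR 2.4.0a and the gene model of Ensembl release 77. Gene counts made by the authors with featureCounts (Subread 1.4.6-p1) were deposited without normalization. The authors also deposited estimated counts and TPM of 88198 transcripts from kallisto 0.42.3. The versions come from the submitters' processing notes. A row of genes without a name (0.00876% to 0.0264% of counts) was kept out of library sizes and tests.

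Counts were scaled by TMM and tested with edgeR 4.0.16 (quasi-likelihood, genotype and LPS as terms, Benjamini-Hochberg adjustment, threshold 0.05) in R 4.3.3, over the 11286 genes whose mean reached 50 counts. Genes 2-fold apart were counted on log2(CPM + 0.5), which understates changes of low genes, while member ratios carry no pseudocount. Exact 95% Clopper-Pearson intervals (scipy 1.17.1, Python 3.11.15) cover counting error only, and they treat every read as independent although copies made by PCR are not separate molecules. Exon lengths were those of the count table. Transcript structures came from GENCODE M21. On simulated data over 11286 genes for the LPS comparison, 100 of 100 genes changed 4-fold and 88 of 100 changed 2-fold were called, with 8 of 11086 unchanged genes, at the spread estimated from these libraries (a biological coefficient of variation of 0.141), and 96 of 100 changed 2-fold at a spread of 0.1. The simulated LPS data changed far fewer genes than were called here. They gave every gene the same spread and held no difference between genotypes, so these rates may not carry over to the 4 libraries. On simulated pairs of libraries, 538 of 565 intervals (95.2%) held the true ratio.

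All 31 members are named, with the other pathway genes at least 2-fold apart in the same direction in both genotypes (the 8 largest in each direction) and the pair of transcripts with the highest mean TPM of each member whose leading transcript differed or whose share moved by 20 points. Of the other genes, the markers, the transcripts of Fcgr2b, Lyn, Pik3r1 and Rasgrp3, and the further transcripts of Fyn, Inpp5d and Pik3cd, were chosen after their values were seen. The members and lists were chosen with earlier results of these data known. The results of some other genes are not reported here. Alternatives were total counts, DESeq2 1.42.0, TMM without immunoglobulin genes, both kallisto tables, other count minimums, another pseudocount or fold, no genotype term, each library left out, and, chosen after the data were seen, TPM for levels compared between members.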

Additional observations from a re-analysis of the deposited data

Results flagged for a closer look

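The LPS change of Btk had opposite signs in the genotypes, with both counting intervals away from 0. On the log2 scale, LPS over resting came to -0.23 (95% interval -0.32 to -0.13) in ΔleftPAL and 0.19 (95% interval 0.10 to 0.28) in ΔIRIS cells, and the difference of ΔIRIS minus ΔleftPAL was 0.41. With kallisto TPM, which moved the median of all genes down, the ratios had the same sign, at -0.51 and -0.15. The difference of 0.41 was not tested, since each ratio rests on 1 library per state, and its cause was not tested.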

How the results depend on the processing

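No member called by edgeR changed sign under any alternative run. The members called were 2 higher and 18 lower, and with 1 library left out (no genotype term, the lone sample of its state taken to vary like the others) 1 to 2 higher and 13 to 16 lower (27% to 34.5% and 19.6% to 26.5% of all genes), the lower end of the higher calls being without LPS ΔleftPAL, where Rasgrp3 was lost. DESeq2 called 2 higher and 17 lower (31.3% and 25.4% of all genes), kallisto estimated counts 3 and 15 (38.5% and 27.3%). At least 2-fold lower on LPS in ΔleftPAL cells were 8 members (15.5% of all genes), but 5 with kallisto estimated counts (14.8%), 15 with TPM (22%) and 16 at 1.5-fold (25.6%). In ΔIRIS cells these were 6 (17.3%), but 14 with TPM (23.7%) and 15 at 1.5-fold (26.4%). At least 2-fold higher in ΔleftPAL cells was 1 member (20.1%), but 0 with TPM (12.4%), where the log2 ratio of Fcgr2b was 0.88, and 2 at 1.5-fold (32.8%). The median log2 ratio of the members, -0.73 in ΔleftPAL and -0.59 in ΔIRIS cells, was -0.58 and -0.44 with kallisto estimated counts and -1.02 and -0.88 with TPM. TPM moved the median of all genes too, from 0.12 and 0.13 to -0.27 and -0.26, and under it 3 and 2 members were above 0 in place of 7 and 9, so the sign of members near 0 depended on the scaling. Between genotypes, 1 member each at rest and after LPS was 1.5-fold lower in ΔIRIS cells (4.27% and 4.5% of all genes). The cause of these shifts was not tested. The genotype term paired the resting and LPS library of each genotype as a block, and without this replicate block edgeR again called 2 members higher and 18 lower (35.4% and 27.2% of all genes), with no call changed.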
